A study of Mus musculus with 8 samples.

Results

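The 10 genes followed here encode the class I antigen presentation pathway: H2-K1, H2-D1, B2m, Tap1, Tap2, Tapbp, Erap1, Psmb8, Psmb9 and Nlrc5. They were chosen by name, as 10 of the 32285 genes in the matrices, and their unique molecular identifiers (UMIs, 1 per captured transcript) were summed over the cells of each group. The cells had been sorted as CD45+CD11b+Ly6Chi, a gate meant for monocytic myeloid-derived suppressor cells, either from MC38 tumors (a colon carcinoma line grown under the skin) or from blood of mice with such tumors. Tumors received ionizing radiation (IR) as a single dose of 20 Gy or none (control), and cells were collected 3 days later. WT denotes mice with floxed Ythdf2 alleles (Ythdf2 fl/fl) and no Cre, and cKO denotes Ythdf2 fl/fl mice that also carried Cre at the Lyz2 locus, so that both genotypes share the floxed alleles and deletion is limited to cells that use Lyz2, chiefly myeloid cells. Ythdf2 encodes a reader of N6-methyladenosine in RNA. The mice were of both sexes and were young adults, between 8 and 10 weeks of age. Cells of 5 mice were pooled for each combination of tissue, treatment and genotype, and the WT and cKO cells of 1 tissue and treatment were tagged with different hashtag antibodies (B0301 for WT, B0302 for cKO) and run in 1 droplet library. Each of the 8 groups was therefore 1 pool in 1 library. No test between groups was possible, all intervals given below are exact 95% intervals that cover counting error only, and a log2 ratio of at least 1 in either direction is used as a limit of size.

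Class I molecules display peptides from inside the cell to CD8+ T cells and serve as ligands for receptors on natural killer (NK) cells. A heavy chain (H2-K or H2-D in the C57BL/6 mouse) pairs with beta-2-microglobulin, and the complex waits in the endoplasmic reticulum for a peptide that the proteasome has cut, the TAP transporter has carried in and aminopeptidases have trimmed. Interferons raise the transcription of most genes of this pathway in many cell types, and the NLR family protein NLRC5 acts as a transactivator of class I promoters.

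Of the 10 genes, 7 lie on mouse chromosome 17 (GENCODE vM21 on build mm10): Tapbp at chr17:33915899-33929292, H2-K1 at chr17:33996017-34000347 on the minus strand, Psmb9 at chr17:34181987-34187764 on the minus strand, Tap1 at chr17:34187553-34197225, Psmb8 at chr17:34197721-34201454, Tap2 at chr17:34203527-34216321 and H2-D1 at chr17:35262730-35267499. B2m lies at chr2:122147686-122153083, Erap1 at chr13:74639568-74693201 and Nlrc5 at chr8:94434356-94527272. All 10 are protein-coding genes. Tap1 and Psmb9 start next to each other on opposite strands and overlap at their 5′ ends. The 2 heavy chains belong to a family of near-identical genes: 10.2% of the 50-base words in the last 400 bases of the H2-K1 transcripts and 10.1% of those of H2-D1 also occur in transcripts of other genes, for H2-K1 in class I relatives such as H2-Q6, H2-Q7 and H2-T22. Reads from such stretches cannot be assigned to 1 gene, so the levels of H2-K1, H2-D1 and the other H2 genes are uncertain to that extent, whereas B2m, Tap2, Erap1, Psmb8, Psmb9 and Nlrc5 shared none of these words.

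Promoter windows of 300 bases (250 before to 50 after the start, RefSeq on build GRCm38.p6) were given for 8 of the 10 genes. Tap2 and Nlrc5 had no window. Those of the 2 heavy chains, the light chain and Tap1 are shown because they stand for the chains of the molecule and for the transporter, whose ratios described below were among the largest. Capitals mark matches on either strand to TTTCNNTTC (interferon motif A) or to TTTC and TTTC with 2 bases between them (interferon motif B), which are forms of the interferon-response element, and to TGACG, the core of the cyclic AMP-response element.
H2-K1, chr17:34000298-34000597, minus strand: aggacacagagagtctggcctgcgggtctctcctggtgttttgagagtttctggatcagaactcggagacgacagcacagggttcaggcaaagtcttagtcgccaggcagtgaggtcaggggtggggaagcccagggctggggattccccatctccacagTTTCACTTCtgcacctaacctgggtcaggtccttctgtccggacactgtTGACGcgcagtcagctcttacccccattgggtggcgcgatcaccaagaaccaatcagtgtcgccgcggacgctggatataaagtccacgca
H2-D1, chr17:35262844-35263143, plus strand: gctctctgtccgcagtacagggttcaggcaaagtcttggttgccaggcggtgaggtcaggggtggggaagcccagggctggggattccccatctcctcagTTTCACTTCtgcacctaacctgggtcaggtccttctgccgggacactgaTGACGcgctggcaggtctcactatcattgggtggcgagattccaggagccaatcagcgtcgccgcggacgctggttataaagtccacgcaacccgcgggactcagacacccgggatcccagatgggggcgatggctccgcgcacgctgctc
B2m, chr2:122147437-122147736, plus strand: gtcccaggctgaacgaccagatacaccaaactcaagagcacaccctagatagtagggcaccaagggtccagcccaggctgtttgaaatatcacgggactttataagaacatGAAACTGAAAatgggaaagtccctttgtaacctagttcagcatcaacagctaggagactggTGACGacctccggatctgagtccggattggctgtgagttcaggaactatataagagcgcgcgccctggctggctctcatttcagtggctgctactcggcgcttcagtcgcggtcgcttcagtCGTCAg
Tap1, chr17:34187306-34187605, plus strand: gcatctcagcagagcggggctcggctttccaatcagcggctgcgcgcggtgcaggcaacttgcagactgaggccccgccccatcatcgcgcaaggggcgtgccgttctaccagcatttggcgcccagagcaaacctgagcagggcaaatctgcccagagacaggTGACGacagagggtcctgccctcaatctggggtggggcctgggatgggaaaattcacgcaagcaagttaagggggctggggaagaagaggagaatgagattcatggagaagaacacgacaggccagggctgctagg
The heavy chain windows held the same order, TTTCACTTC and then TGACG, both upstream of the start. TTTCNNTTC occurred in 2 of the 8 genes (H2-K1 and H2-D1) and in 7.52% of all 32851 windows. Interferon motif B occurred in B2m and Erap1 and in 3.44% of all windows. TGACG occurred in 5 of 8 genes (H2-K1, H2-D1, B2m, Tap1 and Psmb9, the last 2 in overlapping windows) and in 20.8% of all windows. Another 2 motifs were searched. The gamma-activated site TTCNNNGAA occurred in Psmb8 alone against 8.30% of all windows, and a form of the NF-κB site, GGGA and CC with 4 bases between them, in H2-K1, H2-D1 and B2m against 20.7%. The motifs were settled after matches had been looked at, both strands were read, and these are matches of letters, not sites shown to be bound.

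Several facts of the libraries bear on every value. The matrices held between 51653956 and 87703837 gene UMIs, and 28823 cells were kept, from 2179 (tumor control cKO) to 4848 (blood control WT) per group, with median depths of 2810 to 3136 UMIs per cell in blood and 5954 to 8478 in tumor. In the tumor control matrix 7327 of 13144 barcodes with at least 500 gene UMIs had fewer than 20 hashtag UMIs, and 7325 of these were hashtagged in the tumor IR matrix. Likewise 4958 of 12927 barcodes of the tumor IR matrix had fewer than 20, of which 4955 were hashtagged in the tumor control matrix, so each tumor matrix also held RNA under the barcodes of the other library. Only barcodes with at least 20 hashtag UMIs were used, after which 276 barcodes were shared by the tumor libraries and 24 by the blood libraries. The deletion could not be checked from these 3′ tags: Ythdf2 stood at 303 to 374 CPM (UMIs in every 1000000 gene UMIs of the group) in the 4 groups labelled cKO and at 32.6 to 55.6 CPM in the 4 labelled WT, opposite to the label. Lyz2, the gene that carries Cre, fell from between 5628 and 13926 CPM in cells labelled WT to between 84.8 and 139 CPM in cells labelled cKO. The labels WT and cKO are used below as the hashtags give them, and any direction between them rests on these labels. The cells were also not all of the sorted phenotype. Neutrophil-like cells made up 67.7% to 74.1% of the blood groups, and a fibroblast-like cluster, whose Ptprc (the CD45 gene) stood at only 2.90 to 9.61 CPM, made up 4.59% of cells in tumor control WT, 11.6% in tumor control cKO, 2.53% in tumor IR WT and 1.18% in tumor IR cKO. Because these cells were large, they held 16.7%, 30.4%, 9.68% and 5.20% of the UMIs of the same 4 groups.

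The 3 chains of the molecule were the most abundant members in every group. H2-K1, a classical heavy chain, stood in blood at 861 CPM (control WT), 860 (control cKO), 986 (IR WT) and 840 (IR cKO), and in tumor at 1566 (control WT), 1252 (control cKO), 1815 (IR WT) and 1850 (IR cKO). H2-D1, the other classical heavy chain, stood in blood at 2644, 2477, 2921 and 2676 CPM and in tumor at 2278, 1738, 2769 and 2608 CPM, in the same order of groups. B2m, the light chain, stood at 2237, 2283, 2464 and 2260 CPM in blood and at 3373, 2593, 4431 and 4515 CPM in tumor. H2-K1 and B2m were thus higher in each tumor group than in each blood group, whereas H2-D1 was not: its lowest value was in tumor control cKO and its highest in blood IR WT. H2-D1 was above B2m in every blood group and below it in every tumor group.

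The transporter and loading genes were lower than these 3 chains in every group. Tap1, a subunit of the peptide transporter, stood in blood at 88.5 CPM (control WT), 93.9 (control cKO), 118 (IR WT) and 117 (IR cKO) and in tumor at 173, 122, 265 and 279. Tap2, its partner, stood in blood at 69.1, 60.9, 81.1 and 75.6 CPM and in tumor at 111, 77.5, 134 and 150. Tapbp (tapasin, which bridges the transporter and the empty class I molecule) stood in blood at 189, 178, 202 and 201 CPM and in tumor at 274, 194, 377 and 422. For all 3 genes the irradiated tumors were the highest groups, and tumor control cKO was the lowest of the tumor groups. Erap1, the aminopeptidase that trims peptides in the endoplasmic reticulum, followed another order: it stood in blood at 17.5, 18.6, 20.7 and 19.7 CPM and in tumor at 32.5, 30.0, 27.4 and 26.3, so that the unirradiated tumors were highest. Tags of 3′ libraries count 1 per transcript, so these levels can be set beside each other without a correction for length, but transcripts may differ in how well they are captured.

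Psmb8 and Psmb9 encode catalytic subunits that replace constitutive ones in the immunoproteasome. Psmb8 stood in blood at 369 CPM (control WT), 376 (control cKO), 465 (IR WT) and 458 (IR cKO) and in tumor at 649, 481, 754 and 774. Psmb9 stood in blood at 183, 191, 244 and 235 CPM and in tumor at 239, 174, 336 and 358. In contrast to Psmb8, the blood levels of Psmb9 overlapped those of unirradiated tumors, and tumor control cKO was below all 4 blood groups. Nlrc5, the transactivator, was among the least abundant members and stood in blood at 15.6, 17.0, 19.1 and 16.3 CPM and in tumor at 25.8, 19.0, 49.1 and 51.5. Irradiated tumors of both genotypes had at least 1.90 times the Nlrc5 level of any other group.

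**Figure D1:**
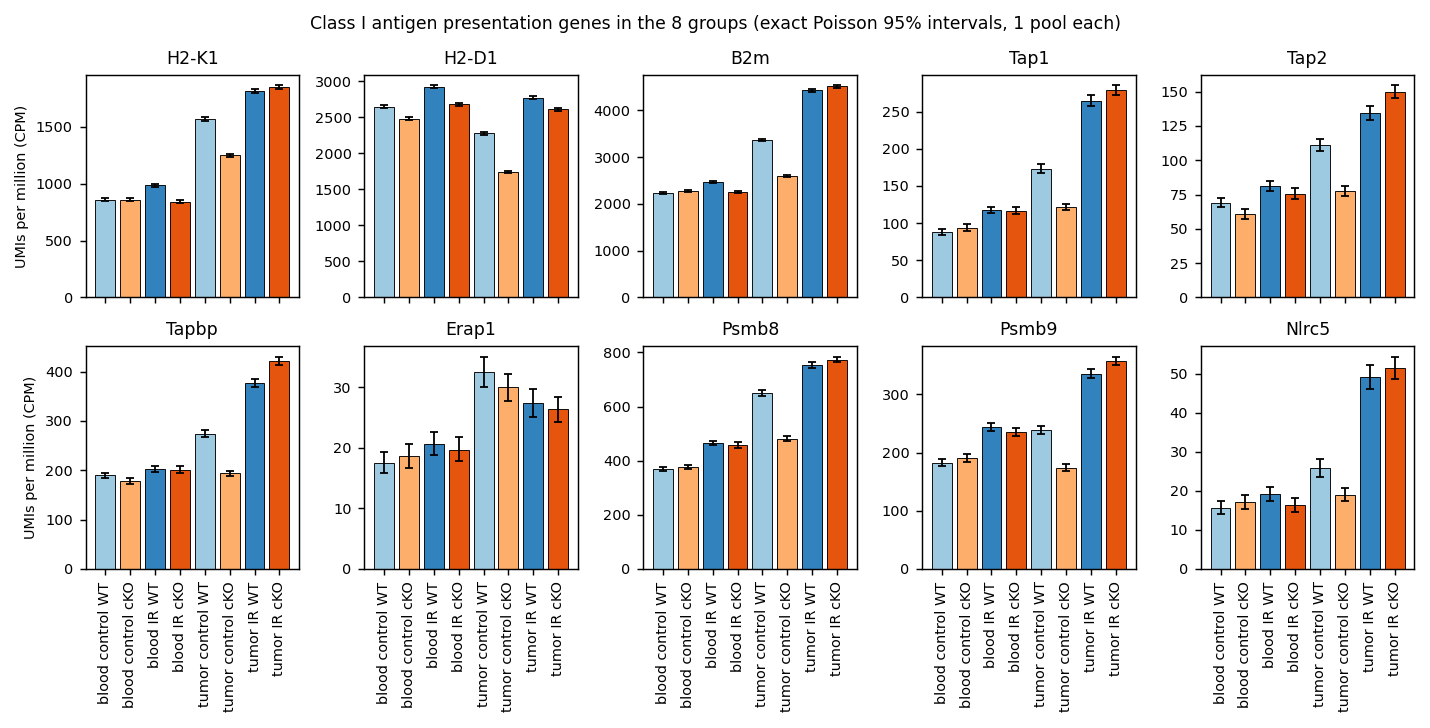
Level of each of the 10 genes (CPM, bars from 0) in the 8 groups, each 1 pool of 5 mice, with exact Poisson 95% intervals that cover counting error only. Irradiated tumors are highest for 8 of the 10 genes, H2-D1 is as high in blood as in tumor, and Erap1 is highest in unirradiated tumors.

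Whether IR went with higher class I transcripts in the tumor was asked first. In cells labelled WT, 9 of the 10 members were higher in the irradiated library, but 0 of 10 passed the limit, against 2.63% of 10162 genes that passed it upward and 3.2% that passed it downward. The median log2 ratio of the members was 0.34 beside -0.13 for all genes, and 0.22 with equal weight per cluster. Equal weight used only clusters with at least 50 cells in both groups. It therefore left out monocyte-like cluster 7, which reached 50 cells only after IR. The mix of named classes differed between the control and irradiated libraries. Monocyte-like cells were 1.57% of control and 19.7% of irradiated WT cells, macrophage-like cells 31.4% and 15.4%, and neutrophil-like cells 0.667% and 10.3%. In cKO the same classes were 0.872% and 17.98%, 49.4% and 19.4%, and 1.33% and 6.42%. The monocyte-like cells of tumor were chiefly cluster 7, which was led by interferon-stimulated genes and raised 3 monocyte markers (Ly6c2, Plac8 and Ms4a4c). The unnamed clusters 2, 6 and 9 count in none of these classes. How far the shares reflect cell type or an interferon-induced state was not tested. Nlrc5 had the largest ratio at 0.93 (0.78 to 1.08), followed by Tap1 at 0.61 (0.55 to 0.68), Psmb9 at 0.49 (0.44 to 0.54) and Tapbp at 0.46 (0.41 to 0.51). B2m was at 0.39, H2-D1 at 0.28, Tap2 at 0.27, Psmb8 at 0.22 and H2-K1 at 0.21. Erap1 was the exception at -0.25 (-0.41 to -0.08).

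In cells labelled cKO the same 9 genes had larger ratios, and 4 of 10 members rose past the limit, against 5.18% of 10676 genes that passed it upward and 17.0% that passed it downward. Nlrc5 rose by 1.44 (1.28 to 1.60), Tap1 by 1.198 (1.14 to 1.26), Tapbp by 1.13 (1.08 to 1.18) and Psmb9 by 1.04 (0.98 to 1.09) on the log2 scale. Tap2 was just inside the limit at 0.95 (0.87 to 1.03), and B2m stood at 0.80, Psmb8 at 0.69, H2-D1 at 0.59 and H2-K1 at 0.56. Erap1 stood at -0.19 (-0.34 to -0.03), which TMM scaling moved to 0.00. TMM scaling, which assumes that most genes do not differ, moved the median of all genes from -0.18 to 0.01 in cKO and from -0.13 to 0.01 in WT, and those of the members to 1.07 and 0.47. The median of the members was 0.87 beside -0.18 for all genes. The fibroblast-like cells, which had the lowest Tap1 and Tap2 levels of the clusters in unirradiated tumors, held a smaller share of UMIs after IR, and their part alone in the count was not tested. Without the fibroblast-, NK cell-, T cell-, B cell- and basophil-like clusters only Nlrc5 (1.24) passed the limit, against 4.06% of genes upward, with Tap1 at 0.89, Tapbp at 0.83, Psmb9 at 0.73, B2m at 0.71 and a median of 0.68 beside -0.06 for all genes. Within the macrophage-like cells alone (clusters 3 and 10) 0 of 10 passed, with a median of 0.67. This class leaves out cluster 6, described below, which raised 5 macrophage markers but stayed unnamed. The macrophage-like cells changed in make-up, with 506 cells of cluster 10 and 570 of cluster 3 in control cKO against 63 and 674 in IR cKO, and the medians within clusters 10 and 3 were 0.45 and 0.60. The sign of all 10 ratios was the same without the 5 classes and in macrophage-like cells. With equal weight per cluster, again without cluster 7, the median was 0.53 and 1 of 10 passed.

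**Figure D2:**
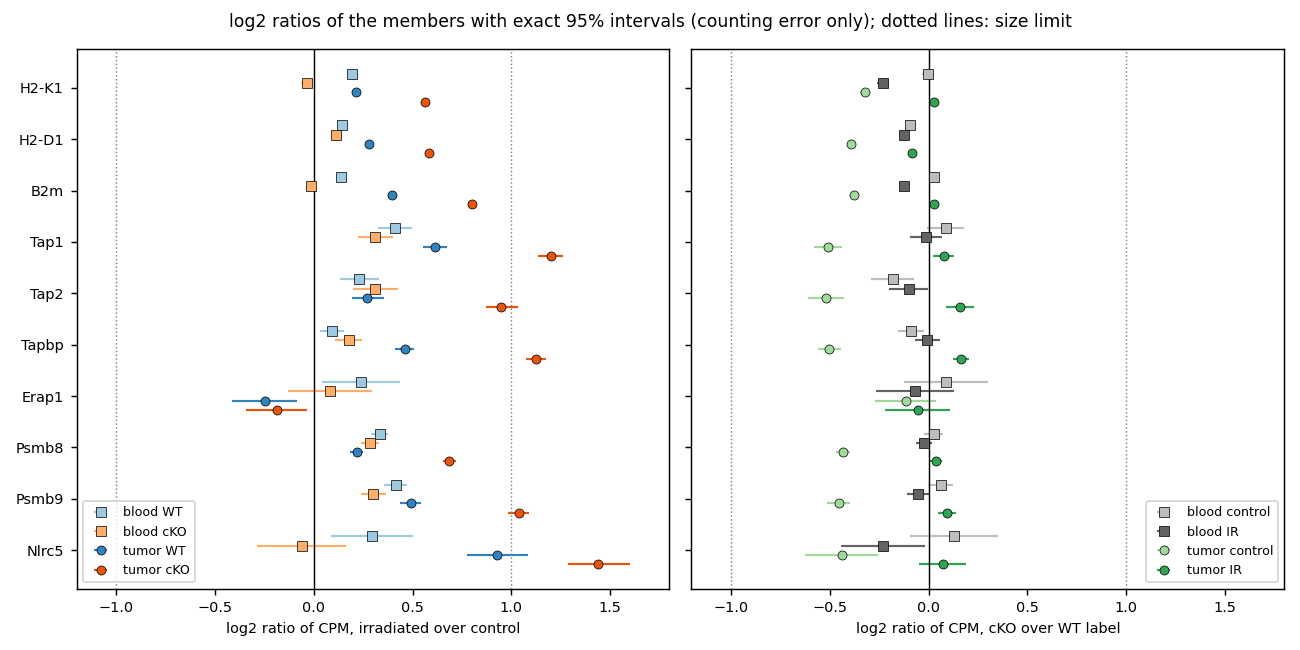
log2 ratios of CPM for each member with exact conditional 95% intervals (counting error only), irradiated over control on the left and cKO label over WT label on the right. Dotted lines mark the limit of 1, which Tap1, Tapbp, Psmb9 and Nlrc5 pass in tumor cKO, and the ratios of tumor control (light green) are below 0 for all 10 genes.

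The next comparison asked whether the level differed with genotype. In unirradiated tumors all 10 members were lower in cells labelled cKO than in cells labelled WT, and none passed the limit, against 1.32% of 10673 genes that passed it downward. Ratios ran from -0.12 (Erap1, -0.27 to 0.04) to -0.52 (Tap2, -0.61 to -0.43), with Tap1 at -0.51, Tapbp at -0.50, Psmb9 at -0.46, Nlrc5 at -0.44, Psmb8 at -0.43, H2-D1 at -0.39, B2m at -0.38 and H2-K1 at -0.32. The median was -0.44 beside 0.11 for all genes. Without the 5 cell classes named above it was -0.35, within macrophage-like cells -0.32, with 10 of 10 members below 0 in both, and with equal weight per cluster -0.22. The macrophage-like value mixes clusters in different shares, since cluster 10 held 506 and cluster 3 held 570 cells in control cKO against 194 and 606 in control WT. The medians of these clusters were 0.05 and -0.37. In irradiated tumors the same contrast gave 8 of 10 members above 0, from -0.09 (H2-D1) to 0.16 (Tap2 and Tapbp), with a median of 0.05 beside 0.03 for all genes and 0 of 10 past the limit, against 1.23% of 10032 genes in either direction. The tumor control cKO group enters both the comparison of IR in cKO and the comparison of genotypes in control, so the larger IR ratios of cKO and the lower control level of cKO are the same values seen from both sides. Summed over the 10 genes, the level was 8721 CPM (control WT), 6680 (control cKO), 10958 (IR WT) and 11034 (IR cKO), and without the 5 classes 9267, 7200, 11226 and 11147.

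In blood the differences were small. In cells labelled WT all 10 members were higher after IR, from 0.09 (Tapbp) to 0.41 (Tap1 and Psmb9) with a median of 0.24, and 0 of 10 passed the limit, against 1.32% of 9790 genes in either direction. In cells labelled cKO 7 of 10 were above 0, from -0.06 (Nlrc5) to 0.31 (Tap1 and Tap2) with a median of 0.14, and 0 of 10 passed, against 1.35% of 9524 genes. Between genotypes, 6 of 10 were above 0 in control blood (median 0.03, from -0.18 for Tap2 to 0.13 for Nlrc5), with 0 of 10 past the limit, against 2.24% of 9651 genes. In blood of irradiated mice 0 of 10 were above 0 (median -0.09, from -0.23 for H2-K1 and Nlrc5 to -0.01 for Tapbp), with 0 of 10 past the limit, against 0.63% of 9681 genes. The medians of all genes in these 4 comparisons were 0.03, 0.06, 0.01 and 0.05, in the order given. The groups of these 4 comparisons overlap, and the summed levels were 6675 CPM (control WT), 6555 (control cKO), 7521 (IR WT) and 6897 (IR cKO).

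Cells were grouped into 21 clusters without the 10 members, Ythdf2, Lyz1 and Lyz2, and 18 of them could be named from marker genes. How many markers a name needs was decided with the data in view. Clusters with at least 50 cells in a group are described, which gave 63 combinations of cluster and group. Summed over the members, the highest level was that of mature dendritic cell-like cells (led by Ccl22, Ccr7 and Fscn1) in tumor IR cKO at 15424 CPM (15061 to 15794). The tumor monocyte-like cluster 7, which reached 50 cells only after IR and was led by the interferon-stimulated genes Ifit2, Rsad2 and Cmpk2, followed with 14316 CPM for WT and 13984 for cKO. Tumor conventional dendritic cell-like cells reached 11470.3 CPM in IR WT. The lowest level was that of immature neutrophil-like cells (Ngp, Ltf, Camp) in blood control cKO at 3048 CPM (2977 to 3121). Blood monocyte-like cells stood between 5763 and 6127 CPM, and nonclassical monocyte-like cells, led by Ace, Adgre4 and Ear2, between 8704 and 9581 CPM, above the blood monocyte-like cells in all 4 blood groups.

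**Figure D3:**
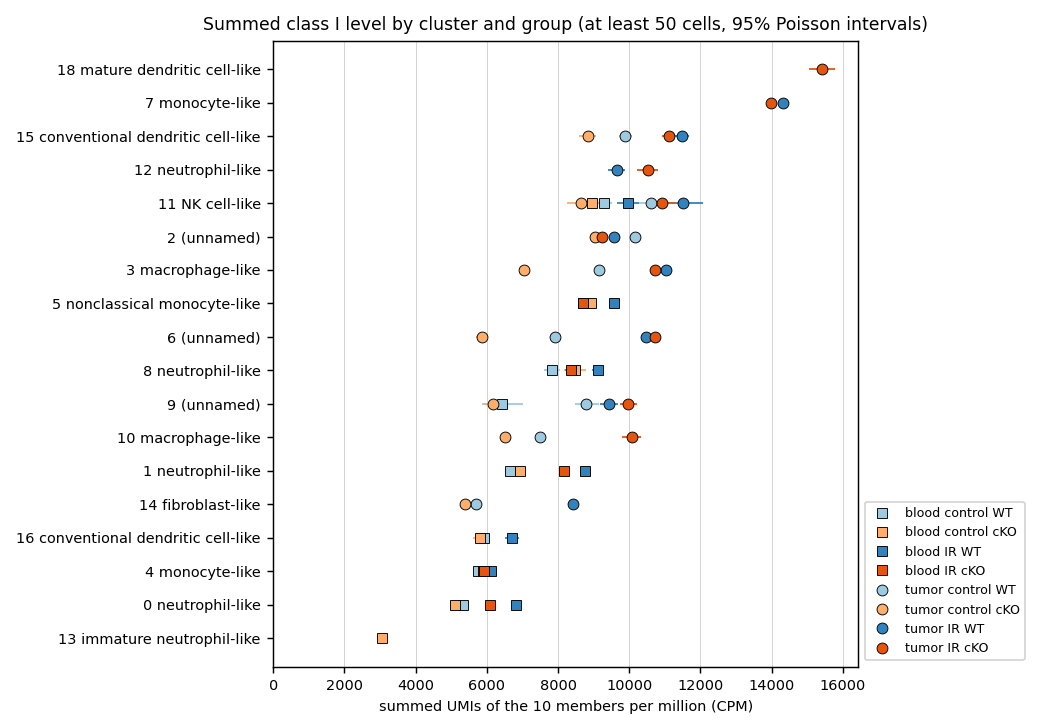
Summed level of the 10 genes (CPM) in each cluster with at least 50 cells in a group, squares for blood and circles for tumor, with exact Poisson 95% intervals (counting error only). Mature dendritic cell-like cells and the monocyte-like cluster of irradiated tumors are highest, immature neutrophil-like cells are lowest, and in clusters 2, 3, 6 and 9 tumor control cKO is the lowest of the 4 tumor values.

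The members did not share 1 pattern over cell types. H2-K1 was highest in NK cell-like cells, at 2655 to 3251 CPM in the 7 groups with enough of them, and lowest in immature neutrophil-like cells at 227 CPM. H2-D1 was instead highest in the neutrophil-like cluster 8 of blood (4207 CPM in IR WT) and lowest in the macrophage-like cluster 10 of tumor (1329 CPM in control cKO). Neutrophil-like clusters 0 and 1 thus held several times more H2-D1 than H2-K1, for example 2944 against 436 CPM in cluster 0 of blood control WT, whereas NK cell-like cells of that group held 3071 and 2766 CPM. B2m, Tap1 and Tapbp peaked in the tumor monocyte-like cluster 7, at 5971 CPM (IR WT), 426 CPM (IR cKO) and 684 CPM (IR cKO). Psmb8 and Psmb9 peaked in mature dendritic cell-like cells at 1909 and 798 CPM, and both were also high in tumor conventional dendritic cell-like cells (1350 to 1425 CPM and 494 to 651 CPM). Erap1 was at 1.71 to 11.4 CPM in the 5 neutrophil-like clusters (0, 1, 8, 12 and 13) and at 11.8 CPM or more in every other cluster. Nlrc5 was at 4.73 to 10.96 CPM in neutrophil-like clusters 0 and 1, at 84.0 and 84.3 CPM in cluster 7 and highest in the unnamed cluster 9 of tumor IR cKO (94.2 CPM).

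**Figure D4:**
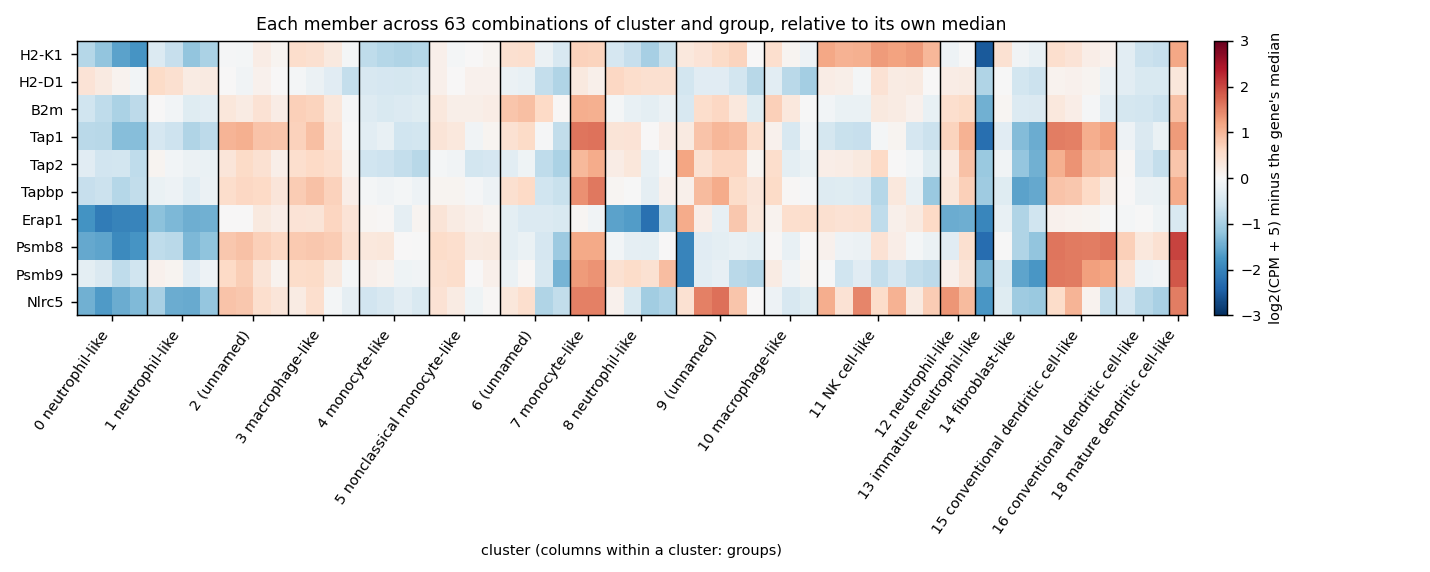
Each member (rows) across the 63 combinations of cluster and group (columns), coloured by log2(CPM + 5) minus the median of that gene. Erap1 is low in all 5 neutrophil-like clusters, H2-D1 among these only in cluster 13, H2-K1 is high in NK cell-like cells, and Psmb8 and Psmb9 are high in dendritic cell-like cells of the tumor.

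Within the single tumor clusters described here and next, the summed level was lower in control cKO than in control WT. Not every single member was lower in each of them. In the macrophage-like cluster 3 (led by Cdh1 and class II genes) the summed level was 9144 CPM in control WT, 7032 in control cKO, 11041 in IR WT and 10723 in IR cKO. All 10 members were lower in cKO than in WT in its control cells, with a median log2 ratio of -0.37 and none past the limit (background 1.09% of genes downward). Cluster 6 (led by Mmp13, Hspa1a and Mmp12, with no name) stood at 7910, 5859, 10460 and 10714 CPM in the same order. Its median log2 ratios after IR were 0.94 in cKO and 0.49 in WT, and 4 of 10 members rose past the limit in cells labelled cKO, against 11.5% of genes upward, and 2 of 10 in cells labelled WT, against 6.41%: Tapbp by 1.28 and 1.10 and Nlrc5 by 1.48 and 1.53 in that order, and Tap1 (1.36) and Psmb9 (1.49) in cKO. The cKO value rests on 99 control cells. Cluster 9, which had a median of 1284 UMIs per cell and mitochondrial genes among its leading genes, stood at 8797, 6185, 9428 and 9980 CPM.

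Cluster 2 (led by Adora2b, Havcr2 and Cxcl10, with no name) differed from these, with 10171 CPM in control WT, 9035 in control cKO, 9563 in IR WT and 9226 in IR cKO. Its summed log2 ratio after IR was -0.09 (-0.11 to -0.07) for WT cells. For cKO cells it was 0.03 (0.01 to 0.06). The macrophage-like cluster 10 (led by Fcrls, Ccl8 and Folr2) stood at 7496 CPM in control WT, 6501 in control cKO and 10067 in IR cKO. In its control cells 6 of 10 members were above 0 in cKO over WT, with a median of 0.05: the log2 ratios of control cKO over control WT were -0.24 for H2-K1, -0.22 for H2-D1 and -0.31 for B2m, -0.07 for Tapbp, 0.02 for Erap1, 0.09 for Tap2, 0.13 for Nlrc5, 0.16 for Psmb9, 0.23 for Psmb8 and 0.41 for Tap1. Fibroblast-like cells stood at 5685 CPM in control WT, 5384 in control cKO and 8419 in IR WT, and 4 of 10 members rose past the limit after IR in WT, against 3.28% of genes upward: Tapbp by 1.30, Tap2 and Psmb9 by 1.16 and Tap1 by 1.02. In blood, neutrophil-like clusters 0 and 1 had summed ratios after IR of 0.36 and 0.39 in WT and 0.26 and 0.23 in cKO, and H2-K1 stood at 0.75 and 0.78 in WT and at 0.57 and 0.27 in cKO. Nlrc5 stood at 0.04 and 0.86 in WT but at -0.62 and -0.49 in cKO, from few UMIs. In cluster 0 its cKO level was 7.42 CPM (4.80 to 10.95, 25 UMIs) in control and 4.73 CPM (2.80 to 7.48, 18 UMIs) after IR. Its WT level there was 6.25 CPM (3.82 to 9.65) and 6.45 CPM (4.18 to 9.53). These counting intervals overlap within each genotype, and the difference in sign between genotypes was not tested. The neutrophil-like cluster 8 had summed ratios of 0.22 (WT) and -0.02 (cKO), and nonclassical monocyte-like cells 0.14 and -0.04. Blood monocyte-like cells had 0.09 and 0.01.

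Genes that act beside the members were taken as lists. The lists were chosen with earlier results of these data known, and their counts are descriptions. Genes inside the limit are named below for their role and were picked after their values were seen. Of 10 measured other class I molecules, 7 rose past the limit after IR in tumor cKO and 3 in tumor WT. The shares of all genes were 5.18% and 2.63%. H2-T24 rose by 2.29 and 1.49, H2-T22, a ligand of some gamma delta T cells, by 1.76 and 1.04, and H2-Q10 by 1.55 and 1.32 in that order. H2-T23, which encodes the nonclassical molecule Qa-1 that presents leader peptides to NK cell receptors, rose by 1.68 in cKO and was at 0.68 in WT. H2-Q6 (1.38), H2-Q7 (1.30) and Cd1d1 (1.05) also passed in cKO. In tumor control H2-T23 (-1.04 in cKO over WT) was the single gene of this list past the limit, against 1.32% of genes downward. Without the 5 classes the counts after IR were 5 in cKO and 3 in WT, against 4.06% and 2.72% of genes upward.

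Of 14 genes of the loading complex and peptide supply, none rose past the limit in tumor. The shares of all genes upward were 2.63% in WT and 5.18% in cKO. In cKO 1 of the 14 fell past it, against 17.0% of 10676 genes downward: Thop1, an oligopeptidase that destroys peptides in the cytosol, by 1.67. The proteasome activator subunits Psme1 and Psme2 stood at 0.72 and 0.69 in cKO and at 0.23 and 0.10 in WT, and the chaperones Calr and Canx at -0.14 and -0.40 in cKO. The 3 constitutive catalytic subunits Psmb5, Psmb6 and Psmb7 stood between -0.17 and -0.03 in tumor cKO and between -0.03 and 0.02 in tumor WT, beside 1.04 and 0.49 for Psmb9 and 0.69 and 0.22 for Psmb8. In blood cells labelled WT the 3 stood at 0.24 to 0.28, and in those labelled cKO at 0.15 to 0.32, beside 0.33 and 0.28 for Psmb8 and 0.41 and 0.30 for Psmb9.

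Among the regulators described here, Stat2, Irf9 and Socs1 rose past the limit after IR in tumor cKO, by 2.45, 1.48 and 1.18. In WT Stat2 rose by 1.62, and Irf9 and Socs1 stood at 0.72 and 0.71. Irf1, a driver of class I transcription, stood at 0.25 in cKO and 0.36 in WT, and Rfx5, Rfxank and Rfxap, the subunits of the factor that binds with NLRC5, stood between -0.16 and 0.31 in cKO. Of 10 measured type I interferon targets, all 10 rose past the limit in both genotypes. The share of all genes that did so was 5.18% in cKO and 2.63% in WT. The medians of the 10 were 3.81 in cKO and 2.72 in WT. Without the 5 classes all 10 again passed in both, with medians of 3.49 and 2.58, against 4.06% and 2.72% of genes. Ifit3, an antiviral effector, went from 28.4 to 238 CPM in WT and from 11.7 to 217 CPM in cKO, and Isg15, a ubiquitin-like modifier, from 402 to 2115 CPM and from 247 to 2161 CPM. For both genes the irradiated groups were close to each other while control cKO was below control WT. Mx1 was the 1 gene of the lists that the matrices did not hold. In tumor control 5 of these 10 were lower in cKO by more than the limit, against 1.32% of genes downward, with a median of -1.001. Of 11 interferon-gamma targets 8 rose past it in cKO and 4 in WT, against 5.18% and 2.63% of genes. Without the 5 classes 4 and 1 did so, against 4.06% and 2.72%. Irgm1 (1.79 and 1.12) and Igtp (1.73 and 1.11) were past the limit in both genotypes, with Cxcl10 (1.29) and Cd274 (1.003) in WT. In cKO the others were the checkpoint ligand Cd274 (1.73) and the guanylate-binding proteins Gbp4 (1.61), Gbp5 (1.27), Gbp3 (1.19), Gbp2 (1.18) and Gbp7 (1.04). Cxcl9, a chemokine for T cells, fell by 1.21 in WT and stood at -0.55 in cKO. None of the 8 class II genes passed the limit in either direction, against 22.2% of genes in cKO and 5.83% in WT. In cKO 3 of 8 were above 0 (up to 0.54) and the median was -0.09, and in WT 0 of 8 were above 0 and the median was -0.61. Without the 5 classes the medians were -0.53 and -0.77, and 2 of 8 fell past the limit in WT, against 2.19% of genes. In blood the medians of the type I targets after IR were 0.63 in WT and 0.67 in cKO. There 0 and 1 of 10 rose past the limit, against 0.327% and 0.399% of genes.

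Over the 63 combinations of cluster and group, the genes most like the mean of the members were Ifi47 (r = 0.84), H2-T22 (0.81), Gbp5 (0.81), Psme1 (0.81), Parp14 (0.80), Psme2 (0.80), Ilrun (0.80), Tapbpl (0.78), Zbp1 (0.77) and Ifi35 (0.76), by Pearson's r of log2(CPM + 5) among 7365 genes. Of these, H2-T22, Gbp5, Psme1, Psme2 and Tapbpl were in the lists above. Among the members themselves, Tap1 followed the mean of the other 9 most closely (r = 0.89), then Tapbp (0.81), Tap2 (0.80), Nlrc5 (0.79), Psmb8 (0.78), B2m (0.76), H2-K1 (0.68), Psmb9 (0.65) and Erap1 (0.42). H2-D1 followed it least (0.19), and its r with H2-K1 was 0.15. The points share libraries and depth, so these values are descriptions.

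The protein product of these genes also took part in the labelling of the cells, because the hashtag antibodies are directed at CD45 and at class I molecules. The median count of a cell's own hashtag was 719 UMIs in blood control WT, 1071 in blood control cKO, 941 in blood IR WT, 1525 in blood IR cKO, 516 in tumor control WT, 1004 in tumor control cKO, 652.5 in tumor IR WT and 1098 in tumor IR cKO. It was higher in cKO than in WT in each library. The same counts set the labels, and unevenly: WT needed B0301 at least equal to B0302, cKO needed B0302 at least 4 times B0301. This rule, the different hashtag antibodies and different amounts of target cannot be told apart. The own-hashtag count did not follow the transcripts across cell types. In tumor control WT the macrophage-like cluster 10 had the highest median at 1224.5 hashtag UMIs with 7496 CPM of the members and 379 CPM of Ptprc, whereas NK cell-like cells had the lowest at 343 with 10599 CPM and 1785 CPM. Fibroblast-like cells of that group had 358 hashtag UMIs with 9.19 CPM of Ptprc. Cells with little of both antigens could have fallen under the minimum of 20 hashtag UMIs. In each blood library 11 barcodes with at least 500 gene UMIs fell under it. In tumor, 7325 of 7327 (control) and 4955 of 4958 (IR) such barcodes were hashtagged in the other tumor library. The part of that choice in the levels was not tested.

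Free RNA in the droplets also carried the members. In barcodes ranked 45000 to 90000 by UMIs, H2-K1 stood at 1266 to 2059 CPM, B2m at 2857 to 5648 CPM, Tap1 at 138 to 235 CPM and Nlrc5 at 35.7 to 74.99 CPM, of the same order as in the cells. The part of free RNA in the levels was not tested, and the 2 genotypes of a library share it.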

How the data were processed

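Droplet libraries (10x Genomics 3′ v3.1) of 4 samples carried gene and hashtag reads together. Per the methods, the authors aligned reads to mm10 with GENCODE vM23 in Cell Ranger 6.0.1, and they deposited unfiltered matrices of raw UMI counts per gene and barcode. Barcodes with at least 500 gene UMIs, 200 genes, at most 25% mitochondrial UMIs and 20 hashtag UMIs were kept. A cell was labelled WT where B0301 was at least equal to B0302, cKO where B0302 was at least 4 times B0301, and otherwise removed. The threshold of Scrublet (scanpy 1.11.5) marked 1 to 6 barcodes per library, which was read as not having worked, so the top 6% by its score were removed. Depth was 19291954 to 24672682 gene UMIs per group.

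UMIs were summed per group and given as CPM, with exact Poisson intervals for levels and exact conditional binomial intervals for ratios (scipy 1.17.1), after adding 1 UMI to each side of a ratio. A ratio was measured with at least 100 UMIs in both groups together, or 20 within a cluster. Clusters came from Seurat 5.3.0 (2000 variable genes, 40 components, resolution 0.8) and were named from 18 marker lists where at least 3 markers were raised. A name also needed that no other cell type had more markers among the cluster's leading genes. Clusters of low depth with no marker of their class among these genes stayed unnamed. With 1 pool per group there was no replicate and no test. The named genes were the 10 members, list genes past the limit, and the 10 genes most like the members' mean; others are said to be picked later. The members and lists were chosen with earlier results of these data known. Alternatives numbered 15 planned and 1 added after seeing the data. Ratios and intervals were tested on simulated data. A regulator among the list genes is not reported here.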

Additional observations from a re-analysis of the deposited data

Results flagged for a closer look

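Some members had log2 ratios of opposite sign in 2 settings of the same contrast, with counting intervals off 0 in both. None of these differences between contrasts was tested, since each group was 1 pool, and several share a group.

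Between tumor control and tumor IR, the ratio of cells labelled cKO over cells labelled WT was -0.32 and 0.03 for H2-K1, -0.38 and 0.03 for B2m, -0.51 and 0.08 for Tap1, and -0.52 and 0.16 for Tap2. It was -0.50 and 0.16 for Tapbp, -0.43 and 0.04 for Psmb8, and -0.46 and 0.09 for Psmb9. The tumor control values are the larger in size throughout, and those after IR are at most 0.16. In macrophage-like cells alone the ratio after IR was -0.02 for H2-K1 and B2m and -0.01 for Psmb8 and Psmb9, so the opposite signs of these 4 genes were not seen there.

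In irradiated mice the same ratio was -0.23 in blood and 0.03 in tumor for H2-K1, and -0.10 in blood and 0.16 in tumor for Tap2. For B2m it was 0.03 in control blood and -0.12 in blood after IR, but in neutrophil-like cells alone, the commonest blood class, -0.03 and -0.18, both below 0. H2-K1 and Tap2 after IR were at -0.33 and -0.19 in those cells, and at -0.02 and 0.12 in macrophage-like cells.

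For IR over control, H2-K1 was at 0.20 in blood WT, at -0.03 in blood cKO and at 0.56 in tumor cKO. In neutrophil-like cells alone the blood cKO value was 0.44, and the blood WT value 0.72, so the opposite signs were not seen there. Erap1 was at 0.24 in blood WT and at -0.25 in tumor WT, and at 0.37 in neutrophil-like cells of blood and -0.20 in macrophage-like cells of tumor.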

How the results depend on the processing

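Counts of members past the limit moved by more than 1.5 times in 7 cases, all for IR over control in tumor. In WT the count went from 0 to 1 with a margin rule for hashtags, with TMM factors and with median-of-ratios factors. In cKO it went from 4 to 1 with each cell weighted equally, with equal weight per cluster and, in the alternative added after seeing the data, without the NK, T, B, fibroblast and basophil clusters, and to 0 in macrophage-like cells only. The macrophage-like cells were clusters 3 and 10 and did not include the unnamed cluster 6. The other 249 counts under alternatives stayed within 1.5 times. Of the 80 ratios, 63 had intervals off 0, and 8 of these took the opposite sign in 17 values of other settings; the largest of the 8 was 0.19 in size. With equal weight per cluster the members' medians moved by over 1.5 times for IR in tumor WT (0.34 to 0.22) and cKO (0.87 to 0.53) and for cKO over WT in tumor control (-0.44 to -0.22). This setting used only clusters with at least 50 cells in both groups, so in tumor both IR values leave out cluster 7. The same held in blood for IR in cKO (0.14 to 0.09) and for cKO over WT in control (0.03 to 0.08). In neutrophil-like cells alone, the median for IR in blood went from 0.24 to 0.41 in WT and from 0.14 to 0.26 in cKO. There the median for cKO over WT went from 0.03 to -0.02 in control blood and from -0.09 to -0.18 after IR. No paired analysis was possible because each group was 1 pool in 1 library, and for the same reason no replicate could be left out. Depth limited Erap1 and Nlrc5 most, at 15.6 to 51.5 CPM per group, and pool, library and treatment cannot be told apart.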
